A study of Homo sapiens with 16 samples.

Results

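The comparison described here is GSK126 against DMSO in MM.1S, a human multiple myeloma cell line, and its members are the 4 arrays titled for those groups among the 16 arrays of the series. MM.1S cells had been cultured for 6 days with 1 µM GSK126, an inhibitor of the methyltransferase EZH2, or with the DMSO vehicle alone, and each group holds 2 samples numbered replicate 1 and 2. The other MM.1S groups, 2 arrays each, received 1 µM UNC0638, an inhibitor of the methyltransferase G9a (gene EHMT2), or 1 µM of each inhibitor, and the same 4 treatments of RPMI-8226, a second myeloma line, fill the remaining 8 arrays. No group carries a genetic change, the line is a single culture model with no other cell type added, and the labels do not say whether replicates came from separate cultures. The study's text calls the arrays biological replications without more detail, and p-values measure only the spread between these samples.

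EZH2 is the catalytic subunit of Polycomb repressive complex PRC2, which places methyl groups on lysine 27 of histone H3. The trimethylated mark, H3K27me3, is read by a second complex, PRC1, and lies over genes that a cell holds silent, among them the HOX genes, other developmental transcription factors and genes of neighbouring differentiation stages. In germinal centre B cells EZH2 is abundant and helps to hold back the plasma cell programme, while plasma cells are marked by high IRF4, PRDM1 and XBP1 and by the machinery of antibody secretion. GSK126 blocks the enzyme without being aimed at its mRNA, so that RNA arrays read the genes downstream and not the histone mark.

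Levels are given as the log2 signal of a probe minus the 75th percentile of its array, so that 0 is the level of a probe at that percentile, and a change is the GSK126 mean minus the DMSO mean on this log2 scale. Of the probes, 23945 were well above background on both arrays of either group, and 14088 genes were represented among them. Replicate arrays correlated across these probes at 0.9955 (DMSO) and 0.9947 (GSK126). Between 49.9% and 52.8% of spots were well above background on the 8 MM.1S arrays and none was saturated. All 8 arrays of a cell line shared 1 slide and 1 scan, so the slide could not differ between GSK126 and DMSO, whereas cell line and slide cannot be told apart. The deposited names carry 1 date for replicate 1 and another for replicate 2 within each line, and what the dates mark is not stated. All 19 plasma cell identity genes on the array were above background on both DMSO arrays, led by TXNDC5. Of the markers of other cell types, 6 of 16 were above background on both DMSO arrays for T and NK cells, 4 of 15 for monocytes, macrophages and neutrophils, 6 of 12 for erythroid cells and megakaryocytes and 2 of 14 for stroma and endothelium. CD3E, MS4A1, PAX5, CSF1R, MPO, COL1A1 and VWF were not above background on both of them, whereas HBB, a globin gene, and CD4 were. The summed level of the T and NK markers was 10.5 to 10.8 times the 75th percentile in DMSO and 8.94 to 9.39 times in GSK126, that of the erythroid markers 15.4 to 16.1 and 16.4 to 17.3 times, and that of the monocyte, macrophage and neutrophil markers 3.17 to 3.66 and 3.3 to 3.66 times. Stromal and endothelial markers summed to 0.941 to 0.977 and 0.621 to 0.702 times, and their part in the results was not tested.

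More probes were called higher than lower with GSK126, although this excess depended on the variance model, and the called rises were larger. At an adjusted p under 0.05 (limma, Benjamini-Hochberg), 1413 probes were higher, 5.9% of those tested, and 753 were lower, 3.14% of those tested. Called in either direction were 9.05% of probes. The called rises had a median log2 change of 0.85 and the called falls one of -0.54. Beyond 2-fold, 562 called probes were higher and 75 lower. The sizes of the rises include DMSO signals below background. Called or not, 821 probes were over 2-fold higher and 139 lower, and 440 and 69 among probes above background on all 4 arrays. The median change over all probes was -0.05. The SD of the changes over probes was 0.45, against the 0.20 that differences between replicate arrays alone would give. At each of the 2166 called probes both GSK126 arrays lay on the same side of both DMSO arrays. With a single array left out both counts were smaller, so they rest on all 4 arrays of the comparison. They also rest on the other MM.1S groups, because the spread was estimated over all 8 MM.1S arrays. With only the compared groups in the fit, 683 probes were higher and 157 lower. With the array scaled to the 75th percentile of its detected probes the calls were 1674 higher and 413 lower, or 80.2% higher in place of 65.2%. With a prior variance that follows intensity, 1946 were higher and 1980 lower, or 49.6% higher, so the excess of rises was absent under that setting.

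The rises were concentrated among transcripts that were low in DMSO. Where the DMSO level lay between -4 and -2, 7.48% of probes were called higher and 1.83% lower, and where it lay above 2, 1.49% were higher and 5.42% lower. The DMSO mean enters both the level and the change, so spread in it favours rises at low levels and falls at high levels. The size of that effect was not tested. A probe that was not above background in DMSO entered the comparison only by being above it in GSK126, so those probes had to be higher. Among the 22997 probes above background on both DMSO arrays, 1169 (5.08%) were called higher and 753 (3.27%) lower, so rises also outnumbered falls where the filter did not use GSK126. Of the called rises, 195 were on probes that neither DMSO array detected. In a bulk sample, fewer expressing cells and less RNA per cell cannot be told apart.

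**Figure D1:**
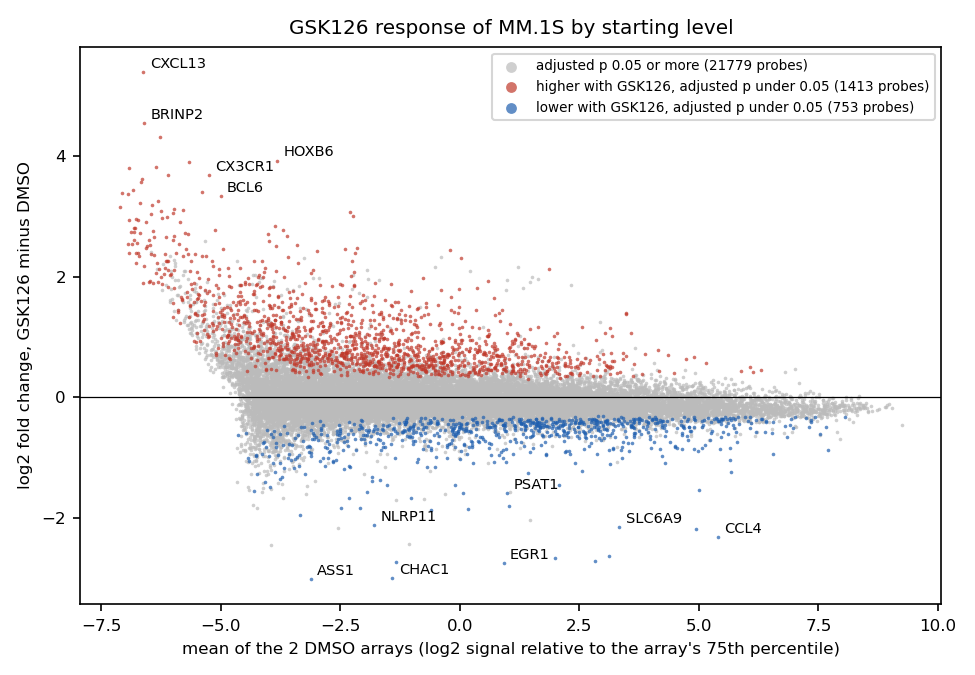
Each point is 1 of the 23945 probes, with its mean level on the 2 DMSO arrays on the x axis (log2 signal relative to the 75th percentile of the array) and its log2 change with GSK126 on the y axis. Red points (1413) were called higher and blue points (753) lower, and the rises reach 5.40 at the low end of the DMSO levels, where the empty lower left corner follows from the filter on dim probes.

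No gene of the drug's own target complex was called. EZH2 stood at 3.75 and 3.74 on the DMSO arrays and at 3.81 and 3.62 on the GSK126 arrays, a change of -0.03 (SE 0.18, limma adjusted p = 0.922). None of the 14 measured PRC2 genes passed the test, and their changes had a median of -0.06 against -0.05 over all genes tested. SUZ12 and EED, the core partners of EZH2, changed by -0.17 and 0.07, and EZH1, the related catalytic subunit, by 0.03 (adjusted p = 0.224, 0.561 and 0.849, limma). EHMT2 changed by -0.08 (adjusted p = 0.621, limma). Of the 22 measured genes of PRC1 and the H3K27 demethylases, 6 were called higher and none lower, where 7.17% of all genes were called higher and 3.15% lower by 1 probe per gene. BMI1, a PRC1 ring-finger subunit, stood at 0.67 and 0.78 in DMSO and at 1.42 and 1.62 in GSK126. PHC1 rose by 0.78, RNF2, the ubiquitin ligase of PRC1, by 0.59, and CBX2, a reader of H3K27me3, by 0.54. With a single array left out, between 0 and 1 of these genes was still called. Among the cyclin-dependent kinase inhibitors, CDKN1C, an imprinted gene, rose from -0.05 and 0.03 to 1.65 and 1.31, or 2.81-fold (adjusted p = 0.00587, limma). The other 5 measured inhibitors were not called. CDKN2A, a classical Polycomb target, changed by 0.15 and CDKN1A by -0.11 (adjusted p = 0.695 and 0.765, limma).

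HOX genes rose in the HOXB cluster. HOXB6 (probe at chr17:46673193-46673252, GRCh37) was at -3.69 and -3.95 in DMSO and at 0.39 and -0.16 in GSK126, a 15.3-fold rise (log2 change 3.93, SE 0.21, adjusted p = 0.00284, limma), and it was above background on all 4 arrays. Its neighbour HOXB5 (chr17:46668806-46668865, GRCh37) was at -6.71 and -6.60 in DMSO, not above background, and at -2.90 and -3.15 in GSK126, which makes it at least 3.39-fold higher (adjusted p = 0.00284, limma). Here and below, such a bound sets the GSK126 mean against the lowest signal still above background on each DMSO array, or the probe's own signal where that is higher. The filter admitted such a probe only through its GSK126 arrays, so its adjusted p is not separate support for a rise. HOXB2 rose by 0.89, while HOXB3 and HOXB4 changed by 0.74 and 0.27 without being called (adjusted p = 0.0989 and 0.132, limma). All 5 measured HOXB genes were higher than in DMSO and 3 were called, beside 7.17% of all genes called higher and 3.15% lower. Of the 5, 4 were above background on both DMSO arrays, and HOXB5 entered only through GSK126, so it had to be higher. With only probes above background on all 4 arrays tested, 2 were called higher. In the HOXA cluster none of the 4 measured genes was called by its brightest probe. HOXA10 gave different answers from its probes: 1 of them stood at 0.19 and 0.23 in DMSO and at -0.09 and -0.01 in GSK126, and the other, not above background in DMSO, was at least 3.33-fold higher in GSK126 (adjusted p = 0.0138, limma). No gene of the HOXC or HOXD clusters, with 9 each on the array, was above background on both arrays of either group.

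Outside the HOX clusters, 48 of 138 developmental transcription factors were measured, of which 8 were called higher and 2 lower, with a median change of 0.16 beside -0.05 over all genes. For this and the next list, the shares over all genes were 7.17% higher and 3.15% lower. SATB1, a chromatin organiser of lymphocytes, went from -0.43 and 0.04 to 2.23 and 2.28, a 5.47-fold rise (adjusted p = 0.00306, limma). HOPX, a homeodomain-only cofactor, rose 5.40-fold, HHEX, a haematopoietic homeobox factor, 3.40-fold, and OLIG1 1.63-fold. EMX1 and PAX7 fell by 0.81 and 0.54. With a single array left out, between 1 and 3 genes of this list were called higher and none lower. The BMP and TGF-beta list, which includes the ID genes that BMP signals switch on and that hold back basic helix-loop-helix factors, had 10 of its 30 measured genes called higher and none lower, with a median change of 0.44, and 26 of the 30 lay above their DMSO mean. Of these 30, 25 were above background on both DMSO arrays, and the others entered only through GSK126. With only probes above background on all 4 arrays tested, 8 were called higher. ID3 rose from 0.12 and -0.08 to 2.57 and 2.11, or 4.99-fold. ID1 was at 2.16 and 1.56 in DMSO and at 4.31 and 3.66 in GSK126, or 4.36-fold higher. NOG, which encodes the BMP antagonist noggin, rose 4.17-fold, and BMPR2, a BMP receptor that was not above background in DMSO, was at least 2.07-fold higher. These calls had adjusted p between 0.00284 (BMPR2) and 0.0172 (ID1) by limma, and with a single array left out between 3 and 6 of the list were called higher.

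Genes of growth factor signalling did not move as a block. In the list of FGF receptors, ERK outputs and immediate-early genes, 8 of 33 were called higher and 2 lower, with a median of 0.02. Beside this and the lists that follow, 7.17% of all genes were called higher and 3.15% lower. IL17RD, a feedback inhibitor of FGF signalling, went from -3.60 and -4.41 to -1.30 and -1.27, a 6.57-fold rise. FGFR3 and FGFR1 rose 2.73-fold and 2.07-fold and SPRY1, a second feedback inhibitor, 2.72-fold. EGR1, an immediate-early transcription factor, went the other way, from 1.33 and 0.51 to -2.64 and -1.04, a 6.76-fold fall (adjusted p = 0.034, limma). The GSK126 arrays differed from each other by more for EGR1 than for the genes above, and JUND fell by 0.64. CCND1, cyclin D1, rose from -2.51 on both DMSO arrays to -1.40 and -1.39 (adjusted p = 0.00317, limma). Among p53 target genes, 7 of 33 were called higher and 1 lower. PLK2 rose 3.95-fold, ZMAT3 3.30-fold, TP53I11 2.86-fold and PHLDA3 2.49-fold, whereas CDKN1A was not called and SESN2, which is also an ATF4 target, fell by 1.02. Of 27 measured S100, annexin and actin-binding genes, 8 were higher and none lower. RND3, a small GTPase, was at -3.56 and -3.63 in DMSO and at -0.70 and -1.84 in GSK126. S100A10 rose 3.81-fold, DBN1, an actin-binding protein, 3.14-fold, and CAPG 3.05-fold. Leaving out a single array left 1 to 3 calls higher in the growth factor list, 3 to 6 in the p53 list and 2 to 5 in the S100 and actin list. BMF, a BH3-only member of the BCL2 family, rose 1.95-fold, the only call among 17, which is no more than the share over all genes.

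**Figure D2:**
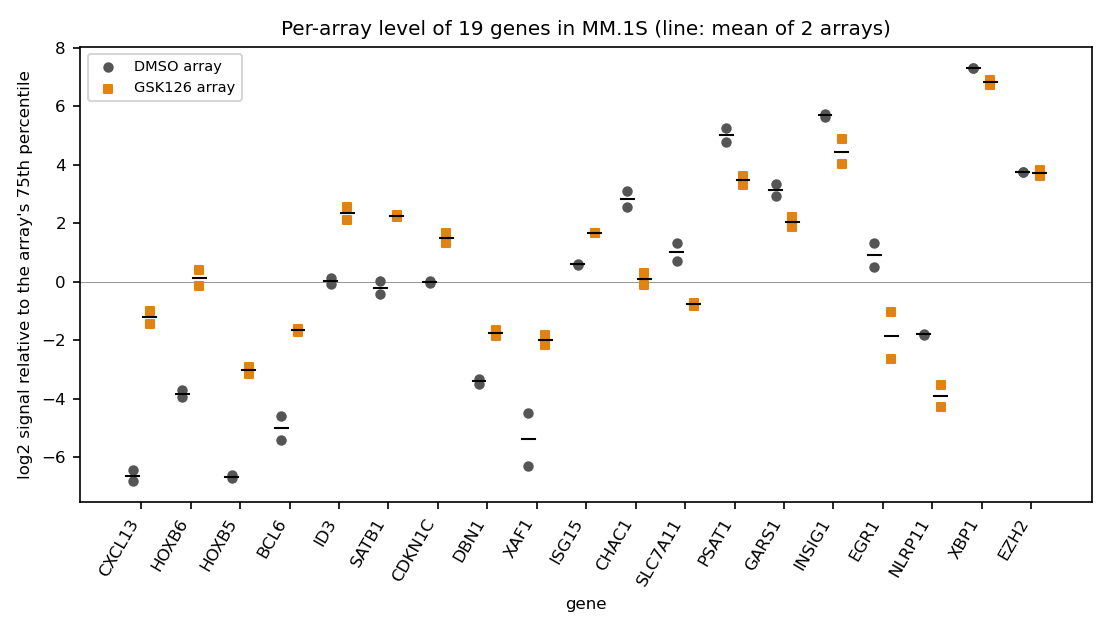
Points are the levels of 19 genes on each of the 2 DMSO arrays (grey circles) and 2 GSK126 arrays (orange squares), on the y axis as log2 signal relative to the 75th percentile of the array, with the mean of 2 arrays as a line. For genes with several probes the brightest is drawn, and EZH2 is the gene whose groups overlap, while XAF1 shows the widest spread between DMSO arrays and EGR1 between GSK126 arrays.

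A chemokine had the largest fitted rise, from a level below background that leaves only a bound on its size. CXCL13 (chr4:78532646-78532705, GRCh37), the ligand of CXCR5 that guides B cells to follicles, was at -6.43 and -6.80 in DMSO, not above background, and at -0.99 and -1.45 in GSK126, at least 11.8-fold higher (adjusted p = 0.00284, limma). Of the 23 measured chemokines and receptors, 8 were called higher and 4 lower, beside 7.17% and 3.15% of all genes. Among the 23, 20 were above background on both DMSO arrays, and the others entered only through GSK126. With only probes above background on all 4 arrays tested, 5 were called higher and 4 lower. CX3CR1, the fractalkine receptor, was at least 9.37-fold higher in GSK126, and CCL25 at least 1.87-fold. CCL2 rose from -2.37 and -2.07 to -0.17 and -0.10, or 4.25-fold. CCL4, a macrophage inflammatory protein that was bright in DMSO at 4.84 and 5.95, fell to 3.43 and 2.72, or 5.00-fold. CCL3L3 fell by 0.87. Both probes can also read near-identical copies (CCL4L2 and CCL3L1), so the gene behind these values is uncertain. CXCR3 fell by 0.53 and XCR1 by 0.41. Leaving out a single array left between 1 and 2 members called higher and between 0 and 1 lower.

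Several B cell genes were among the strongest rises. Of 29 measured B cell identity and surface genes, 9 were called higher and none lower, with a median of 0.19, and 4 to 7 were called higher without a single array. BCL6, the repressor that defines germinal centre B cells, was at -5.41 and -4.59 in DMSO, not above background, and at -1.70 and -1.60 in GSK126, at least 8.34-fold higher (adjusted p = 0.00379, limma). Of the 4 Fc receptor-like genes measured in this list, 3 were called higher, and FCRLA changed by -0.13 without being called. FCRL4 and FCRL2 entered only through GSK126, so they had to be higher, and their calls add no support. FCRL1 and FCRL3 were not above background on both DMSO arrays and are not among the genes measured. FCRL5 stood at -3.55 and -3.68 in DMSO and at -0.91 and -0.97 in GSK126 by its brighter probe, a 6.39-fold rise, and its dimmer probe was at least 8.10-fold higher. From below background, FCRL4 reached at least 2.15 times and FCRL2 at least 3.09 times its DMSO signal. PAX5 and MS4A1, which mark B cells, were not above background on both DMSO arrays. Of the 29 measured B cell genes, 25 were above background on both DMSO arrays, and the others entered only through GSK126. With only probes above background on all 4 arrays tested, 5 genes of that list were called higher. Shares over all genes were 7.17% higher and 3.15% lower. Of 15 MHC class II genes 5 were called higher and 1 lower, with a median of 0.38. HLA-DMB, which loads peptides, rose from 1.02 and 1.07 to 2.27 on both arrays, or 2.34-fold, and HLA-DQB1 and HLA-DRB1 rose 1.84-fold and 1.80-fold. HLA-DRB probes can read related DRB genes. CIITA, the master activator of class II genes, is in this list and was not called. Between 1 and 3 class II genes were called higher without a single array.

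A minority of plasma cell identity genes fell, by small amounts. Of 19 measured, 4 were called lower and none higher, 18 were below their DMSO mean, and the median change was -0.40. Over all genes 3.15% were called lower and 7.17% higher. XBP1, the transcription factor of the secretory programme, was at 7.31 and 7.30 in DMSO and at 6.72 and 6.90 in GSK126, a fall of 1.41-fold (adjusted p = 0.0321, limma). SLAMF7 fell by 0.57, TNFRSF17, the gene of the surface antigen BCMA, by 0.51 and SEC11C by 0.41. Between 0 and 1 of these was called with a single array left out, and 1 by quantile normalization. A list of the 4 genes that the study's text puts in an IRF4 and MYC axis, with KDM3A added, had 1 of 5 called, and all 5 were below their DMSO mean. KLF2 was at 4.07 and 3.87 in DMSO and at 3.19 and 3.37 in GSK126, a change of -0.69 (SE 0.12, adjusted p = 0.0228, limma). This call was lost whichever array was left out, and in a fit over all 16 arrays or over the compared groups alone. IRF4 changed by -0.46 (SE 0.12, adjusted p = 0.0684, limma), MYC by -0.21 (SE 0.12, adjusted p = 0.286, limma) and PRDM1, by its brighter probe, by -0.32 (SE 0.11, adjusted p = 0.116, limma). In the wider MYC network 47 of 52 genes were below DMSO, 2 were called lower (PHB2 and PPAN) and 1 higher (MXD4, a MYC antagonist), with a median of -0.21. The study followed the first 4 of these genes in these samples, so they are not independent evidence of a direction. DNA replication and G1/S genes had 2 of 60 called higher and 1, CDC6, lower, with a median of -0.15. Both counts lay below the shares over all genes. None of the 44 G2 and mitosis genes was called, with a median of -0.01.

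Interferon-stimulated genes rose in part. Of 64 measured genes of IFN-alpha and IFN-beta signalling, 22 were called higher and 1 lower, with a median of 0.30. Over all genes the shares were 7.17% higher and 3.15% lower. Among the 64, 58 were above background on both DMSO arrays, and the others entered only through GSK126. With only probes above background on all 4 arrays tested, 17 were called higher. XAF1 was at -4.47 and -6.30 in DMSO and at -1.81 and -2.14 in GSK126 (adjusted p = 0.0188, limma). RSAD2 (viperin), DDX60 and TRIM22 rose from below background, by at least 1.95-fold, 1.74-fold and 1.34-fold. PARP9 was at least 2.90-fold and 3.70-fold higher by its probes, and DDX60L, a relative of DDX60, at least 2.31-fold. Of the genes that the study followed, ISG15 rose from 0.62 and 0.59 to 1.65 and 1.67, or 2.08-fold (adjusted p = 0.0172, limma), and IFIT1 from -4.44 and -3.54 to -2.26 and -2.66, or 2.89-fold (adjusted p = 0.0412, limma). IFI6 and IRF9 changed by 0.41 and 0.22 (adjusted p = 0.261 and 0.187, limma). OAS3 was at -3.97 and -3.43 in DMSO and at -3.92 and -4.17 in GSK126 (adjusted p = 0.414, limma). OAS1 fell from -0.69 and -0.52 to -1.48 and -1.41, the only called fall of the list by the brightest probe of each gene. Between 7 and 11 genes of the list were called higher without a single array. MHC class I and peptide loading genes had 1 of 22 called higher, HLA-F, and none lower, which is no more than the share over all genes.

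Amino acid and stress response genes were prominent among the strongest falls. ATF4 is a transcription factor that is translated when amino acids run short or the endoplasmic reticulum is under stress, and it switches on amino acid synthesis, uptake and tRNA charging. Of 24 measured genes of its stress core, 10 were called lower and 1 higher, with a median of -0.47, beside 3.15% and 7.17% of all genes called. CHAC1, which degrades glutathione, was at 2.56 and 3.08 in DMSO and at -0.11 and 0.31 in GSK126 by its brighter probe, a 6.59-fold fall (adjusted p = 0.0127, limma). SLC7A11, the cystine transporter, fell from 0.71 and 1.34 to -0.73 and -0.82, or 3.48-fold. JDP2 and DDIT3 fell 3.60-fold and 2.23-fold. ATF4 mRNA itself, named here after its value was seen, fell by 0.61 (adjusted p = 0.0177, limma). The single rise was VLDLR, by 0.45. The probes of ADM2, a peptide hormone gene of the same list, disagreed: 1 of them fell 3.63-fold, and the brighter changed by -0.11 without being called (adjusted p = 0.532, limma).

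The enzymes of serine and one-carbon metabolism had 7 of 19 genes lower and 1 higher. For the lists here, 3.15% of all genes were called lower and 7.17% higher. PSAT1 was at 4.76 and 5.25 in DMSO and at 3.31 and 3.62 in GSK126 by its brighter probe, a 2.92-fold fall, and PHGDH, the entry enzyme of serine synthesis, fell 2.73-fold. ALDH1L2 and MTHFD2, mitochondrial folate enzymes, fell 3.68-fold and 1.78-fold, and AMT rose 1.43-fold. Among amino acid synthesis enzymes 4 of 17 were lower and 1, GLUL, higher. ASNS, asparagine synthetase, fell 1.79-fold, GPT2 2.40-fold and PYCR1 1.81-fold. ASS1, argininosuccinate synthase, was at -3.58 and -2.66 in DMSO and not above background in GSK126, at least 3.32-fold lower by the probe at chr9:133342120-133342179 (GRCh37, adjusted p = 0.0388, limma), and its brighter probe changed by -2.44 without being called. Of 21 amino acid transporters 7 were lower and none higher. SLC6A9, a glycine transporter, fell from 3.07 and 3.61 to 0.87 and 1.49, SLC1A5 fell 2.35-fold and SLC7A5 2.01-fold.

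The synthetases that charge tRNAs were listed by compartment. All 20 cytosolic aminoacyl-tRNA synthetases were below DMSO and 10 were called lower, with a median of -0.50, beside 3.15% of all genes called lower. GARS1 was at 2.93 and 3.35 in DMSO and at 1.87 and 2.20 in GSK126, a 2.16-fold fall. AARS1 fell 1.94-fold, YARS1 1.92-fold and MARS1 1.76-fold. Of the 17 mitochondrial synthetases none was called and 15 were below DMSO, with a median of -0.17. The difference between these lists was not tested. Counts of called genes in these lists were smaller with fewer arrays. With only the compared groups in the fit, 0 cytosolic synthetases were called lower. In that fit 4 genes of the stress core, 4 serine enzymes, 3 synthesis enzymes and 2 transporters were called lower. Without a filter on dim probes, 1 serine enzyme was called lower and no gene of the other lists. Without a single array, between 0 and 7 of the stress core, between 0 and 3 of the serine enzymes and of the synthesis enzymes, between 0 and 2 of the transporters and between 0 and 6 of the cytosolic synthetases were called lower.

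The C/EBP-ATF composite element, the sequence that ATF4 binds with a C/EBP partner, was searched as TTGCATCA on both strands of the RefSeq promoters (GRCh38.p14, from 250 bases before to 50 after the gene's start). Of 10904 tested genes with a promoter sequence, 57 (0.523%) held it, against 11 of 348 (3.16%) of those called lower and 4 of 781 (0.512%) of those called higher. It was in 6 of 16 promoters of cytosolic synthetases, 5 of which were called lower, and in that of CHAC1 and of MTHFD1L. Windows are shown for the 7 called genes of the amino acid and stress lists that hold the element, in the gene's own direction with the element in capitals. The other called falls that hold it belong to none of these lists and are not shown.
AARS1: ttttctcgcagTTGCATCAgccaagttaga
CHAC1: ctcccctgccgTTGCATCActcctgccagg
IARS1: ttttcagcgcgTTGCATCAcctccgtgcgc
MARS1: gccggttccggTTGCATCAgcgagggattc
TARS1: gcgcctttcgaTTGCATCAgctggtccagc
NARS1: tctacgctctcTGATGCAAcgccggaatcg
MTHFD1L: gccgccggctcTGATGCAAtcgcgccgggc
The AARS1 window is chr16:70289675-70289704, the CHAC1 window chr15:40953251-40953280 and the MARS1 window chr12:57488053-57488082 (GRCh38.p14). In NARS1 and MTHFD1L the element lies on the other strand. CARS1, GOT1 and BCAT1 hold it too and were not called, with changes of -0.66, -0.38 and 0.79. Of the other 10 cytosolic synthetases with a promoter, 4 were called lower, with a median change of -0.39 against -0.71 in the 6 that hold the element. A match describes the letters in the window and no binding was measured.

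The interferon-stimulated response element was searched in the same way, as a pair of GAAA blocks spaced by any 2 bases. It was in 323 of 10904 promoters (2.96%), in 37 of 781 (4.74%) of the genes called higher and in 6 of 348 (1.72%) of those called lower. In the interferon list 31 of 52 promoters held it, and 14 of these genes were called higher and none lower, with a median change of 0.44. Of the 21 without it, 4 were higher and 1 lower, with a median of 0.17. The windows below set rises against OAS3 and HERC5, which hold the element and were not called.
ISG15: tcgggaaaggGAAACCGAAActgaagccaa
DDX60: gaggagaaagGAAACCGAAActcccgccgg
IFITM3: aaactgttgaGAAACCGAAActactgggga
MX1: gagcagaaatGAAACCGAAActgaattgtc
OAS3: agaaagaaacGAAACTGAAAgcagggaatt
HERC5: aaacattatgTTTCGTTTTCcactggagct
The ISG15, DDX60, IFITM3 and MX1 windows lie at chr1:1013380-1013409, chr4:168318786-168318815, chr11:320876-320905 and chr21:41420559-41420588 (GRCh38.p14). IFITM3 and MX1 rose by 1.20 and 0.95 and HERC5 changed by -0.10, and these genes and windows were picked after their values were seen. The cyclic AMP response element TGACGTCA was in 340 promoters (3.12%), in 9 of 348 called lower (2.59%) and in 10 of 781 called higher (1.28%). Promoters rich in CpG (over 50% G and C and an observed to expected CpG ratio over 0.6) made up 76.3% of the 10904, 64.8% of those called higher and 76.1% of those called lower. Among genes above background on both DMSO arrays these shares were 76.9%, 66.8% and 76.1%. CpG-poor promoters were thus over-represented among those rises too, as a description with no test. The genes were not matched for DMSO level. Median G and C content was 65% over all these genes and 67% among the rises, with median CpG ratios of 0.832 and 0.775.

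Sterol synthesis genes were the list with the most called falls. Of 36 measured cholesterol and SREBP target genes, 18 were called lower and 1, ELOVL6, higher, 32 lay below their DMSO mean, and the median change of -0.60 was the lowest of all lists described here. By comparison, 3.15% of all genes were called lower and 7.17% higher. In 1 fit over all 16 arrays 14 genes of the list were called lower. With only the compared groups in the fit, or without a filter on dim probes, 0 were called lower. INSIG1, which retains SREBP in the endoplasmic reticulum and is itself a sterol-responsive gene, was at 5.61 and 5.74 in DMSO and at 4.02 and 4.87 in GSK126, a 2.35-fold fall (adjusted p = 0.0465, limma). FASN, fatty acid synthase, fell 2.13-fold, DHCR7, the last enzyme of cholesterol synthesis, 2.07-fold and HMGCS1 1.91-fold. The 2 GSK126 arrays had list medians of -0.75 and -0.44 relative to the DMSO mean, whereas the DMSO arrays lay at 0.04 and -0.04. On GSK126 replicate 2 the ATF4 stress core (-0.60) and the cytosolic synthetases (-0.51) lay lower, so the ranking rests on replicate 1. With DMSO replicate 1, DMSO replicate 2, GSK126 replicate 1 or GSK126 replicate 2 left out, 0, 1, 1 and 15 genes of the list were called lower. In these lists of bright genes, falls were also more frequent in general, as 5.42% of all probes above a DMSO level of 2 were lower.

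**Figure D3:**
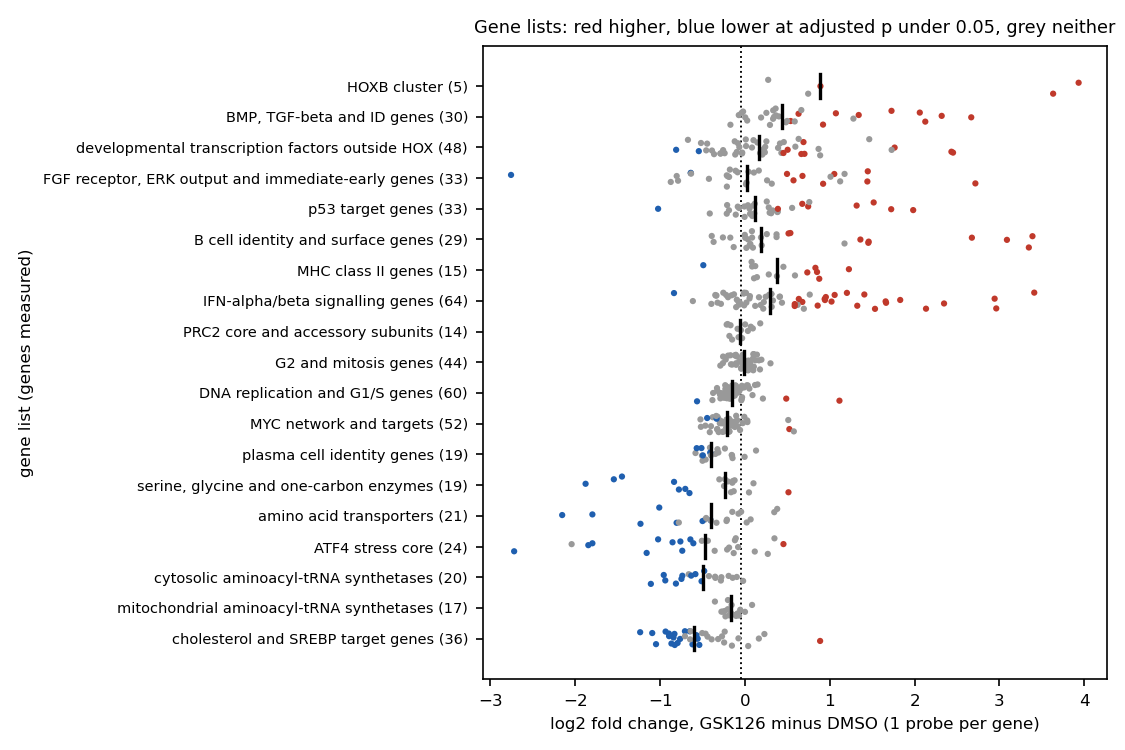
Each point is 1 gene (brightest probe) by its log2 change with GSK126 on the x axis, in 19 lists on the y axis with the number of genes measured. Red genes were called higher, blue genes lower and grey genes neither, black bars are list medians and the dotted line is the median of all 14088 genes (-0.05). Cholesterol genes and cytosolic synthetases lie left of the line, and HOXB, BMP and interferon genes extend to the right.

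Other strong changes fell outside these groups. BRINP2 was at least 6.68-fold and LY6D at least 2.61-fold higher. DMRTC1, a gene with a near-identical copy on chromosome X, was at least 2.51-fold higher. MT1F, a metallothionein, rose 4.0-fold, the only call by brightest probe among 8. Among the falls, PLAC1, a placental gene, dropped from -1.60 and -1.09 to -4.52 and -3.64. ARHGAP9 fell 2.75-fold. NLRP11 fell from -1.82 and -1.77 to -4.29 and -3.54, NLRP4 from -2.04 and -1.86 to -3.34 and -3.72, and SPACA3 from -0.96 and -1.08 to -2.99 and -2.39. These are the 3 called of 14 measured cancer-testis antigens, and 3 genes of the list were called lower whichever array was left out. Of the genes of other cell types, ITGAM rose by 0.82 and CD68, EPOR and PECAM1 fell by 0.76, 0.82 and 0.99. For the counts in this paragraph, the shares over all genes were 7.17% higher and 3.15% lower.

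The same drug was also given on top of UNC0638, on arrays that share no sample with those above. That comparison (GSK126 plus UNC0638 minus UNC0638) called 6.33% of probes higher and 8.75% lower. Both comparisons came from 1 fit and share each probe's estimate of spread, so being called in both is not independent support. Of the 1413 probes called higher by GSK126 alone, 1375 were again above, 877 (62.1%) were called higher and none lower. Of the 753 called lower, 691 were again below, 313 (41.6%) were called lower and 4 higher. Over all probes 42.2% were above 0 in that comparison, and the changes correlated at 0.66 across 23945 probes, which share base composition and array design and are not independent. CXCL13 was raised by 4.63, HOXB6 by 3.02, NOG by 2.83 and BCL6 by 2.33 when GSK126 was added. ID3 rose by 1.41 and CDKN1C by 1.84. The cholesterol list had 10 of 36 genes called lower and a median of -0.47, and the cytosolic synthetases 9 of 20 and -0.44. The ATF4 stress core did not follow, with none called lower, 3 higher and a median of -0.05, and EGR1 changed by 1.79 (adjusted p = 0.0728, limma) where GSK126 alone had lowered it. Replication and G1/S genes, with 1 called lower by GSK126 alone, had 39 of 60 called lower when it was added, and the difference between these counts was not tested. With only the compared groups in the fit, this comparison called 50 probes in all, and without UNC0638 replicate 1 it called 175.

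**Figure D4:**
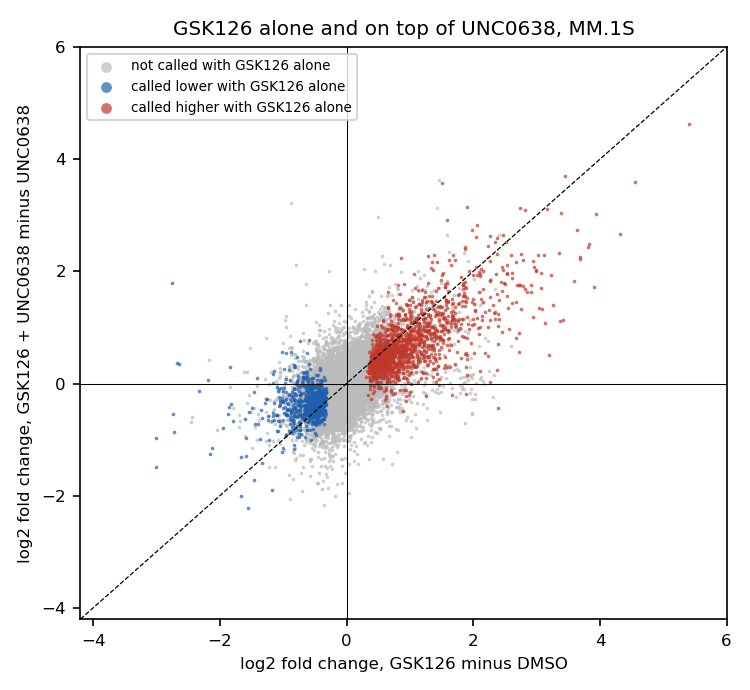
Each point is 1 of 23945 probes, with the log2 change from GSK126 alone on the x axis and from GSK126 added to UNC0638 on the y axis, and the dashed line marks equal change. Probes called higher with GSK126 alone (red) lie above 0 on the y axis in 1375 of 1413 cases, and those called lower (blue) lie below 0 in 691 of 753.

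**Figure D5:**
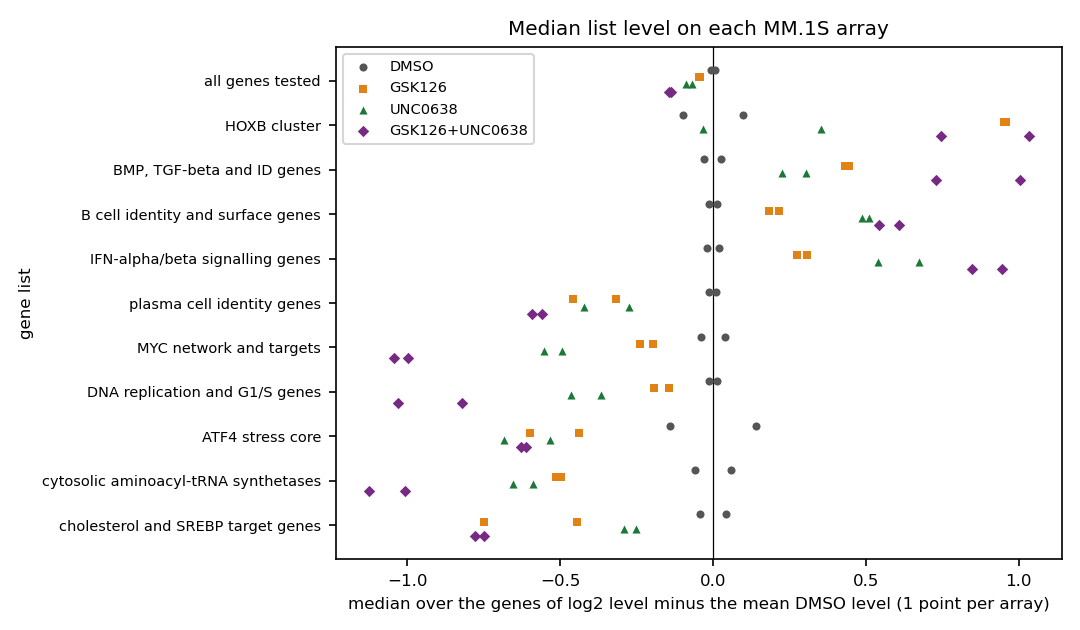
Each point is the median over a list's genes of the log2 level on 1 MM.1S array minus the mean of the DMSO arrays (x axis), for the 4 treatments, for 10 gene lists and for all genes tested (y axis). All genes lie at -0.04 and -0.05 on the GSK126 arrays, and the cholesterol genes lie lower with GSK126 (-0.75 and -0.44) than with UNC0638 (-0.29 and -0.25).

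Set directly against UNC0638, GSK126 left 1656 probes higher (6.92%) and 1343 lower (5.61%). The GSK126 arrays are shared with the comparison against DMSO. Where changes from DMSO are set side by side below, both drugs share the same 2 DMSO arrays. Spread in those arrays moves both changes alike, so likeness between them is partly built in. EPCAM stood at -2.12 and -1.76 with GSK126 and was not above background with UNC0638, at -6.89 and -6.62, while DMSO lay at -2.97 and -2.49. AHNAK was at 2.13 and 2.06 with GSK126 and at -1.18 and -1.76 with UNC0638 (difference 3.57, SE 0.25, adjusted p = 0.00165, limma). TMEM132E differed by 3.47, and MYOF and HOXB5, not above background with UNC0638, were the other largest. In the opposite direction IL1RN was at -4.19 and -3.62 with GSK126 and at -0.15 and 0.09 with UNC0638, and FCRLA at 2.06 and 2.10 against 5.50 and 5.45. ADAM29 was at -5.34 and -4.29 with GSK126, above background on 1 array, and at -1.05 and -0.76 with UNC0638. HSD11B1 differed by -3.18, and MS4A4A was at -1.0 and -0.39 with GSK126 and at 2.24 and 2.57 with UNC0638. For the stress genes the changes from DMSO were, side by side, -2.72 with GSK126 and -3.04 with UNC0638 for CHAC1, -1.55 and -2.60 for PSAT1, and -1.11 and -1.40 for GARS1. For HOXB6 they were 3.93 and 0.54, and for FCRL5, by its brighter probe, 2.67 and 3.55.

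In RPMI-8226, 70 probes were called higher (0.342%) and 10 lower (0.0489%) of 20438. This count comes from a separate fit with its own residual spread. In 1 fit over all 16 arrays 477 probes were called in RPMI-8226, against 613 higher and 210 lower in MM.1S. Of the probes called higher in MM.1S, 954 were also measured there, 730 were above DMSO and 33 (3.46%) were called higher. Of those called lower, 665 were measured, 517 were below and 2 were called lower. Over all probes measured in both lines 40% were above DMSO in RPMI-8226. ID3 rose there too, by 1.48, as did BCL6 by 1.56 and S100A10 by 1.08 (adjusted p between 0.027 and 0.0442, limma). The response itself differed between the lines at 209 of 25467 probes (0.821%), of which 118 (0.463%) were higher in MM.1S and 91 (0.357%) lower. CXCL13, FCRL5 and LY6D were not above background in RPMI-8226 with or without GSK126. CX3CR1 was at 6.60 and 6.93 in RPMI-8226 given DMSO and at 6.43 and 6.69 given GSK126, where it was bright from the start. DPY19L2P3 moved in opposite directions, from -3.16 on both DMSO arrays to -1.83 and -1.69 in MM.1S and from 0.49 and 0.47 to -1.33 and -1.18 in RPMI-8226 (difference 3.13, SE 0.13, adjusted p = 7.12e-06, limma). AGR2 was at -5.79 and -4.66 in RPMI-8226 given DMSO, not above background, and at 1.55 and 1.43 given GSK126, and was not above background in MM.1S. RRAD, ELF3 and CD180 had the same pattern, and SPANXB1, one of several near-identical copies, rose in RPMI-8226 from -2.67 and -2.02 to 2.99 and 2.75 and was not above background in MM.1S given either. Line and slide cannot be told apart in these differences.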

How the data were processed

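RNA of the 16 samples was amplified from 100 ng, labelled with Cy3 and hybridised by the authors to 1-colour Agilent SurePrint G3 Human GE v2 arrays. The deposited files hold spot intensity on a linear scale, already background-subtracted and detrended (Agilent Feature Extraction 10.7), with no normalization between arrays. A deposited table of the whole series holds the same intensity values rounded, 99.9956% of 939472 equal at 3 digits. The methods name Gene Spring GX and no normalization, filter or test for the arrays.

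Control spots (4259 of 62976) and outlier spots were left out, log2 signal was centred on the 75th percentile of each array, and spots of a probe were averaged. Of 50599 probes, 31737 had a symbol from the file's accession or name through RefSeq. Probe positions are those of the files (GRCh37). A probe entered the test when either group had it well above background on its 2 arrays and no MM.1S array lacked a value, which dropped 5 probes. limma 3.58.1 (R 4.3.3; lmFit and eBayes) was fitted over the 8 MM.1S arrays, over the 8 RPMI-8226 arrays for that line and over all 16 for the difference between lines. P-values were adjusted by Benjamini-Hochberg and called under 0.05. The number of arrays limits the precision. On simulated data with the same 23945 probes, 54.5% of probes changed by 1 on the log2 scale and 90.5% of those changed by 2 were recovered, with 4 and 6 false calls. The simulation changed 200 probes and used noise independent between arrays, whereas 2166 probes were called in the data. Its false calls therefore do not describe the real list of calls.

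Gene lists were described by 1 probe per gene, the brightest over the 4 arrays, with counts and medians and no set test. The members and lists were chosen with earlier results of these data known. Genes are named by rule: the 15 largest called rises and falls, EZH2, EHMT2 and 10 genes of the study's text, up to 4 called members of each list in each direction and members of lists of 15 genes or fewer, and the 5 largest differences each way from RPMI-8226 and from UNC0638. Genes named outside the rule (ATF4, genes of the sequence windows and of the marker lists) were chosen after their values were seen. Alternatives were quantile and normexp scaling, the percentile over detected probes, other filters, a replicate block, an intensity trend, other sample sets, the series table and leaving out each array. Some genes that the rule or a list names are not reported here.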

Additional observations from a re-analysis of the deposited data

Results flagged for a closer look

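The response to GSK126 differed between MM.1S and RPMI-8226 by the interaction test (limma, adjusted p under 0.05) for the genes named here, given as the log2 change in MM.1S minus that in RPMI-8226. Signals below background enter these differences, so their size is no bound, and line and slide cannot be told apart. The response was higher in MM.1S for CXCL13 (5.21), FCRL5 (4.22, and 3.52 by its second probe), CX3CR1 (3.89), LY6D (3.69), DPY19L2P3 (3.13), HOXA10 by its dimmer probe (3.13), DMRTC1 (3.07), HOXB6 (2.87), BMPR2 (2.74), IL17RD (2.58), DDX60 (2.45), PARP9 (2.03), ZMAT3 (1.83), CDKN1C (1.69) and DBN1 (1.18). It was lower in MM.1S for AGR2 (-6.93), RRAD (-5.46), SPANXB1 (-5.33), ELF3 (-4.73), CD180 (-4.48), CCL4 (-4.11), ARHGAP9 (-2.34), OAS1 (-2.33), SPACA3 (-2.31) and NLRP11 (-1.67).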

How the results depend on the processing

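Counts of called probes moved more than the values behind them. Without a filter on dim probes, 366 probes were higher and 53 lower with GSK126 in MM.1S, 118 differed between the lines, 1268 between GSK126 and UNC0638, 515 when GSK126 was added to UNC0638 and 20 in RPMI-8226. With 1 fit over all 16 arrays the counts were 613 higher, 210 lower, 1246 against UNC0638, 1296 added and 477 in RPMI-8226. With only the compared groups in the fit they were 683 higher, 157 lower, 67 between lines, 1162 against UNC0638, 50 added and 14 in RPMI-8226. With an intensity-dependent prior variance they were 1946 higher, 1980 lower, 4720 against UNC0638, 5547 added and 128 in RPMI-8226. Probes above background on every array gave 87 between lines and 40 in RPMI-8226. Quantile normalization gave 480 lower and 53 in RPMI-8226, the percentile over detected probes 413 lower, and normexp 1260 lower. The share of calls that were higher, 65.2%, was 70.3% by quantile normalization, 80.2% by the percentile over detected probes, 54.5% by normexp and 49.6% with the intensity-dependent prior variance. The cause of these shifts was not tested.

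With each array left out in turn, the counts lay between 250 and 605 higher, 26 and 235 lower, 77 and 615 between lines (615 without GSK126 replicate 2 of RPMI-8226), 778 and 1140 against UNC0638, 175 and 2290 added, and 3 and 21 in RPMI-8226.

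Replicate numbers did not meet the rule for pairing (correlation of deviations between groups 0.0999 to 0.240, and 0.167 for DMSO and GSK126), although 8 of 8 arrays correlated best with an array of their own number. With the replicate number as a block, 1742 probes were higher and 1119 lower in MM.1S, 486 differed between lines and 284 were called in RPMI-8226. In the lists, 14 BMP and TGF-beta genes were then higher, and 22 interferon genes were higher and 5 lower.

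No called gene named by the rule changed sign under any alternative run. Over the settings, 491 values of genes named by rule lost their call and 25 gained one. Some uncalled values changed sign, all near 0 except that of HOXA6 at 0.767. By quantile normalization these were EZH2 (0.082), PHF19 (0.011), RBBP7 (0.068), EPOP (0.072), CDKN3 (0.021), CDKN1B (0.064), HBG1 (-0.032) and CDH5 (-0.041), and by the percentile over detected probes EZH2 (0.030), EPOP (0.017), HOXA5 (0.025), CDKN1B (0.041) and MT1E (0.033). With an array left out, values ranged for EZH2 from -0.127 to 0.059, EPOP from -0.141 to 0.046, JARID2 from -0.067 to 0.252, EZH1 from -0.033 to 0.101, AEBP2 from -0.089 to 0.093, LCORL from -0.228 to 0.076, HOXA6 from -0.378 to 1.912, HOXA5 from -0.202 to 0.124, CDKN3 from -0.214 to 0.051, CDKN1B from -0.052 to 0.0073, CDKN2A from -0.176 to 0.480, CDKN1A from -0.356 to 0.139, MT1E from -0.113 to 0.052, HBG1 from -0.029 to 0.140 and CDH5 from -0.033 to 0.142.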
